A study of Mus musculus with 17 samples.

Results

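The 8 genes described here encode the 3 D-type cyclins (Ccnd1, Ccnd2 and Ccnd3), the kinases they activate (Cdk4 and Cdk6) and the 3 pocket proteins those kinases phosphorylate (Rb1, Rbl1, which encodes p107, and Rbl2, which encodes p130). The members were set by gene name: every non-control probe annotated to one of the 8 symbols was taken, which gave 14 probes for 8 of the 28090 gene names on the array. RNA from 6 hematopoietic stem and progenitor populations of mouse bone marrow was hybridized to 17 one-colour Agilent arrays. The populations were long-term hematopoietic stem cells (LT-HSC, 2 arrays), short-term hematopoietic stem cells (ST-HSC, 3 arrays), multipotent progenitors (MPP, 3 arrays), common myeloid progenitors (CMP, 3 arrays), granulocyte-monocyte progenitors (GMP, 3 arrays) and megakaryocyte-erythroid progenitors (MEP, 3 arrays). All came from female C57Bl/6 mice aged 6 to 8 weeks, with marrow of 10 to 20 mice pooled for a replicate, so an array reports a pool and not an animal. LT-HSC, ST-HSC and MPP are called the HSC subsets below and CMP, GMP and MEP the myeloid populations, and the 2 sets were sorted in separate sorts from lineage-depleted, c-kit-enriched marrow. Each population carries 1 array without a replicate number, and the label of the other LT-HSC array calls it a pool of 2-3, so it may join replicates 2 and 3. It had a label of its own in the replicate blocks.

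D-type cyclins are made in response to growth factors and bind Cdk4 or Cdk6. The active kinase phosphorylates the pocket proteins, which otherwise hold E2F transcription factors and keep genes for DNA synthesis off. Rb1 mainly binds the activating E2F factors, whereas p107 and p130 bind the repressive ones, p130 typically in resting cells as part of the DREAM complex. Most stem cells of adult marrow are out of cycle, while committed myeloid progenitors divide often.

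Levels are given as quantile-normalized log2 intensity, on which a difference of 1 is a doubling. Levels of different probes are not comparable, because probes bind with different strength, so each gene is compared only with itself across populations. Of the 14 probes, 11 were well above background on every array and 0 were saturated on any. Intensity reflects RNA per unit of labelled RNA, and a change in RNA per cell cannot be told apart from a change in the mix of cells in a sorted gate. Arrays of a population are separate pools of mice as far as the labels say. The p-values rest on the spread between arrays within populations, shared over all populations. That spread holds differences of scanning run and slide as well as those between pools. The main fit also takes arrays as independent, although same-numbered arrays of one sort deviated together.

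Marker genes of the sorted populations were checked first. All 6 GMP markers, among them Mpo and the elastase gene Elane, were highest in GMP, and all 5 MEP markers, among them Gata1 and Klf1, were highest in MEP. Of the 6 stem and multipotent markers, 2 were highest in LT-HSC, 1 in ST-HSC and 3 in MPP. The lists were not confined to their populations. The mean of the GMP markers lay between 13.49 and 14.34 on the ST-HSC arrays, against 12.53 to 13.55 on those of CMP, and the mean of the MEP markers between 10.92 and 11.90 in LT-HSC, against 10.47 to 11.44 in CMP. Ly6a, which encodes the sort marker Sca-1, had a mean of 9.71 in GMP and 8.88 in ST-HSC. Markers of mature neutrophils were also present: all 5 were highest in LT-HSC, where the mean of the list lay between 14.46 and 15.35, against 10.98 to 12.70 in CMP, although cells bearing Gr-1, a granulocyte marker, had been depleted before the sort, along with those bearing B220, CD3 or Ter119. The arrays were scanned in 3 runs. The 6 arrays of run 1 were all myeloid, the 6 of run 3 were all HSC subsets, and the 5 of run 2 held 2 HSC subset and 3 myeloid arrays. Run 1 also differed from runs 2 and 3 in the scanner model and in the version of the software that read the scans. A difference between run 1 and the other runs therefore cannot be told apart from one of scanner or software. On 1 dim array, the unnumbered one of LT-HSC, the upper quartile of spot intensity was 53.1, while no other array fell under 243.3.

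The other brightest probes lie, in mm9, at chr7:152116173-152116232 for Ccnd1, chr17:47736267-47736326 for Ccnd3, chr5:3529287-3529346 for Cdk6, chr14:73595408-73595467 for Rb1, chr2:156972143-156972202 for Rbl1 and chr8:93647120-93647179 for Rbl2. The probe sequences that lie on coding exons show what was measured for Ccnd2, Cdk4 and Cdk6. They are 60-base probes printed 5′ to 3′, from the array design, with mm9 positions. Ccnd2 probe 1 (chr6:127089187-127089246, minus strand) and probe 3 (chr6:127098696-127098755, minus strand) sample separate parts of the same transcript, Cdk4 has 1 probe (chr10:126501967-126502026, plus strand), and Cdk6 probe 2 spans an intron, its ends lying 42285 bases apart (chr5:3473220-3515504, plus strand).
Ccnd2 probe 1: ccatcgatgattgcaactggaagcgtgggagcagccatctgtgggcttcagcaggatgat
Ccnd2 probe 3: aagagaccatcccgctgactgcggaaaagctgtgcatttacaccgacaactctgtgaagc
Cdk4: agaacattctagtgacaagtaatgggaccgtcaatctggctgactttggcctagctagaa
Cdk6 probe 2: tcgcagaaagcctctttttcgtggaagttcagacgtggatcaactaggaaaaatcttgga

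Across the 6 populations, 7 of the 8 genes varied by limma's moderated F-test at an adjusted p under 0.05, and Rbl1 did not (adjusted p 0.589). The same threshold was passed by 40.0% of the 28090 gene names, so variation among these populations was common. At a p under 1e-06, 0 of the 8 passed, against 6.03% of gene names. The count of 7 at the adjusted threshold became 4 with the scanning run as a block in the fit, when Ccnd3, Cdk4 and Rbl2 no longer passed. Over all 41174 probes, 16708 passed without the block and 15096 with it. Of the 15 pairs of populations, Ccnd1 differed in 8, Ccnd2 in 5, Ccnd3 in 7, Cdk4 in 9, Cdk6 in 6, Rb1 in 4, Rbl1 in 0 and Rbl2 in 3. All 9 pairs of Cdk4 and all 7 of Ccnd3 set an HSC subset against a myeloid population, where the scanning run moved with the pair.

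**Figure D1:**
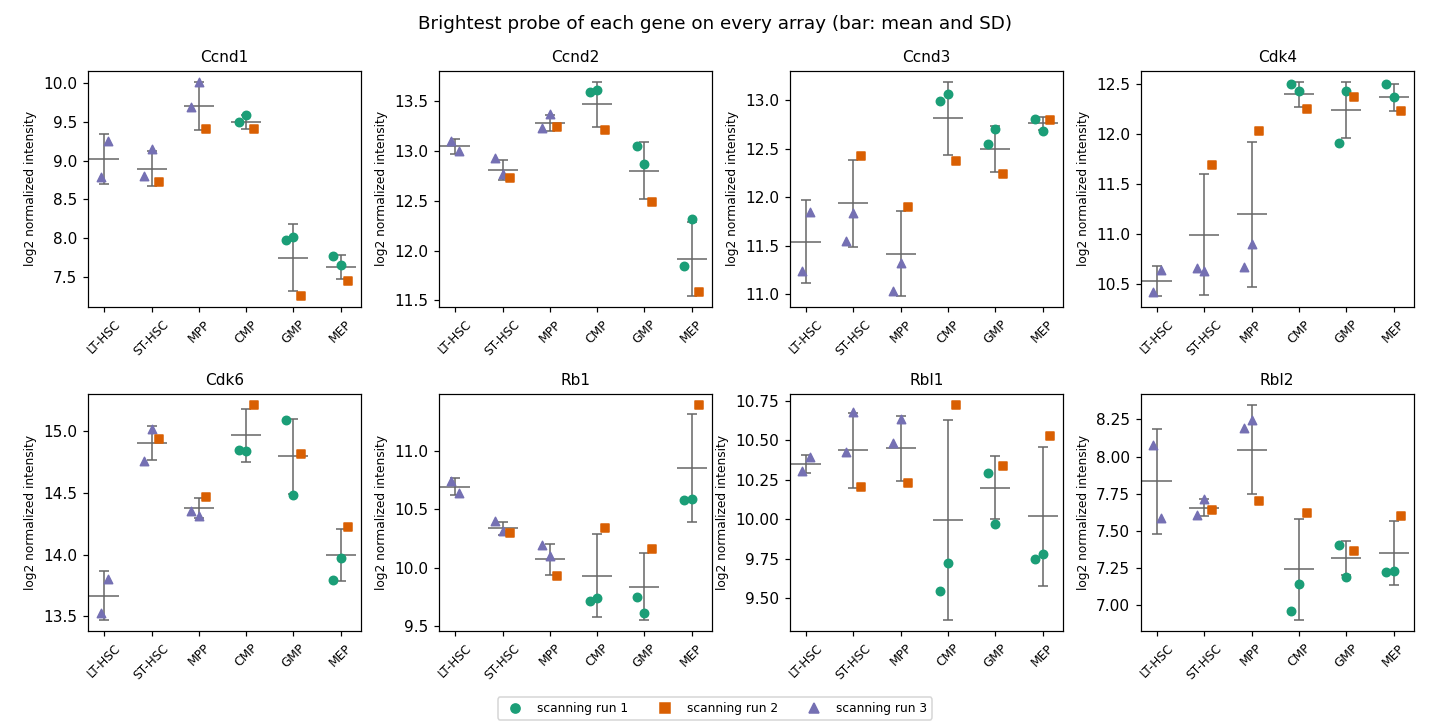
Quantile-normalized log2 intensity of the brightest probe of each gene (vertical axis) on every array of the 6 populations (horizontal axis), with colour and shape giving the scanning run and grey bars the mean and SD. The ST-HSC and MPP arrays of run 2 lie above those of run 3 for Cdk4, while Ccnd1 is low on every GMP and MEP array.

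Ccnd1, a cyclin that links growth factor signals to the cell cycle, was high in MPP and CMP and low in GMP and MEP. Its probe read 8.79 and 9.25 in LT-HSC, 8.81, 9.16 and 8.73 in ST-HSC, 9.69, 10.02 and 9.41 in MPP, 9.502, 9.59 and 9.41 in CMP, 7.98, 8.01 and 7.25 in GMP, and 7.77, 7.66 and 7.45 in MEP. No GMP or MEP array reached the lowest array of the other 4 populations. CMP exceeded GMP by 1.75 (SE 0.23, a 3.37-fold difference, limma adjusted p 0.000554) and MEP by 1.87 (SE 0.23, 3.67-fold, adjusted p 6.15e-05). In order from MPP to MEP, the step from ST-HSC down to GMP was the one between neighbours that passed (1.15, SE 0.23, adjusted p 0.0039). MPP exceeded ST-HSC by 0.81 (SE 0.23) with no overlap of arrays, at an adjusted p of 0.125, and this difference passed with the replicate number within each sort as a block (adjusted p 0.016). Both the GMP markers (list means of 13.49 to 14.34 against 10.47 to 12.28) and the MEP markers (9.46 to 10.03 against 6.74 to 7.88) were higher in ST-HSC than in MPP, and their part in it was not tested.

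Ccnd2, the D cyclin with roles in lymphoid and progenitor cells, was lowest in MEP by all 3 of its probes. Probe 1 read 13.10 and 12.99 in LT-HSC, 12.93, 12.77 and 12.73 in ST-HSC, 13.23, 13.37 and 13.23 in MPP, 13.59, 13.61 and 13.21 in CMP, 13.04, 12.87 and 12.49 in GMP, and 11.84, 12.32 and 11.58 in MEP. Every MEP array was below every other array. CMP exceeded MEP by 1.55 (SE 0.20, 2.93-fold, adjusted p 9.06e-05) with probe 1, by 1.54 with probe 2 and by 1.62 with probe 3, all 3 past the threshold. GMP exceeded MEP by 0.88 with probe 1 (SE 0.20, adjusted p 0.00619), whereas probes 2 and 3, with differences of 0.83 each, did not pass. The 3 probes followed each other closely over the 17 arrays, with Pearson r from 0.92 to 0.93 as a description.

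Ccnd3, the D cyclin best known in erythroid and lymphoid precursors, was higher in the myeloid populations when runs were not modelled. It read 11.24 and 11.84 in LT-HSC, 11.55, 11.83 and 12.43 in ST-HSC, 11.04, 11.32 and 11.90 in MPP, 12.997, 13.07 and 12.38 in CMP, 12.55, 12.71 and 12.25 in GMP, and 12.80, 12.68 and 12.80 in MEP. The ST-HSC array at 12.43 lay within the myeloid range and was the one scanned in run 2. CMP exceeded MPP by 1.39 (2.63-fold, SE 0.28, adjusted p 0.0081). Within run 2, which held 1 array of each, CMP exceeded MPP by 0.48, and with the scanning run as a block the difference of 0.69 did not pass (adjusted p 0.183).

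Cdk4, a kinase partner of the D cyclins, was lower in the HSC subsets than in the myeloid populations when runs were not modelled. It read 10.42 and 10.64 in LT-HSC, 10.66, 10.63 and 11.69 in ST-HSC, 10.67, 10.90 and 12.03 in MPP, 12.50, 12.43 and 12.25 in CMP, 11.91, 12.43 and 12.37 in GMP, and 12.50, 12.37 and 12.23 in MEP. The 6 HSC subset arrays of run 3 lay between 10.42 and 10.90, and the 2 of run 2 were about 1 higher, at 11.69 and 12.03. CMP exceeded MPP by 1.20 (2.29-fold, SE 0.34, adjusted p 0.0363). Within run 2 that difference was 0.23, and with the scanning run as a block it was 0.39 and did not pass (adjusted p 0.421). Among the myeloid populations no pair passed the test.

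Cdk6, the other D cyclin kinase, gave the one call between LT-HSC and ST-HSC. Probe 1, which follows a cDNA clone rather than the reference transcript, read 13.53 and 13.81 in LT-HSC, 14.76, 15.02 and 14.94 in ST-HSC, 14.36, 14.31 and 14.47 in MPP, 14.85, 14.84 and 15.21 in CMP, 15.09, 14.48 and 14.82 in GMP, and 13.80, 13.97 and 14.22 in MEP. LT-HSC was 1.24 below ST-HSC (2.36-fold, SE 0.20, adjusted p 0.00453). Probe 2, the intron-spanning coding probe, was 1.14 lower in LT-HSC (2.20-fold, SE 0.25, adjusted p 0.0265), and neither probe's arrays overlapped. Within run 3 alone the differences were 1.22 and 0.97 in the same direction. Both LT-HSC arrays lay on a slide that held none of the other arrays, so LT-HSC cannot be told apart from that slide. Scaled to the 75th percentile in place of quantiles, the probe 1 difference was 1.17 and did not pass (adjusted p 0.0577). One of the 2 LT-HSC arrays was the dim one, the neutrophil markers were highest in LT-HSC, and the mean of the 5 MEP markers was 10.92 to 11.90 in LT-HSC against 9.46 to 10.03 in ST-HSC. Among them Car1, a carbonic anhydrase, had means of 13.37 and 10.08, and Klf1, an erythroid transcription factor, 10.24 and 7.90. The mean of the 6 GMP markers ran the other way, from 11.41 to 13.18 in LT-HSC against 13.49 to 14.34 in ST-HSC. B and T cell markers were also higher in LT-HSC, at list means of 7.13 to 7.16 against 5.96 to 6.83 and of 7.41 to 7.51 against 6.11 to 6.30. Some lay near background in LT-HSC: Pax5 was well above it on 0 of 2 arrays, and Cd79a and Cd3g on 1 of 2. The part of these markers in this difference was not tested. In this comparison 2.93% of gene names were called higher in LT-HSC and 0.862% lower, and of the 8 genes 0 were called higher and 1 lower.

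The 3 Cdk6 probes did not give the same order of populations. Probe 2 read 7.08 and 7.13 in LT-HSC, 8.12, 8.03 and 8.59 in ST-HSC, 7.28, 7.14 and 8.02 in MPP, 9.03, 9.14 and 9.01 in CMP, 9.42, 9.0 and 8.97 in GMP, and 9.15, 9.12 and 9.11 in MEP. All 9 myeloid arrays lay above all 8 HSC subset arrays by this probe. MEP, which was 0.97 below CMP by probe 1 (SE 0.18, adjusted p 0.00192) and 0.80 below GMP (SE 0.18, adjusted p 0.00658), differed from them by 0.07 or less by probe 2. Scaled to the 75th percentile, neither probe 1 difference passed (0.56, adjusted p 0.172, and 0.47, adjusted p 0.281). Probe 3 lay well above background on 16 of 17 arrays, the exception being the unnumbered LT-HSC array, and it followed probe 2 (r = 0.79 over the 17 arrays) more closely than probe 1 (r = 0.39). Where no probe is named for Cdk6, the value is that of probe 1, the brightest.

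**Figure D2:**
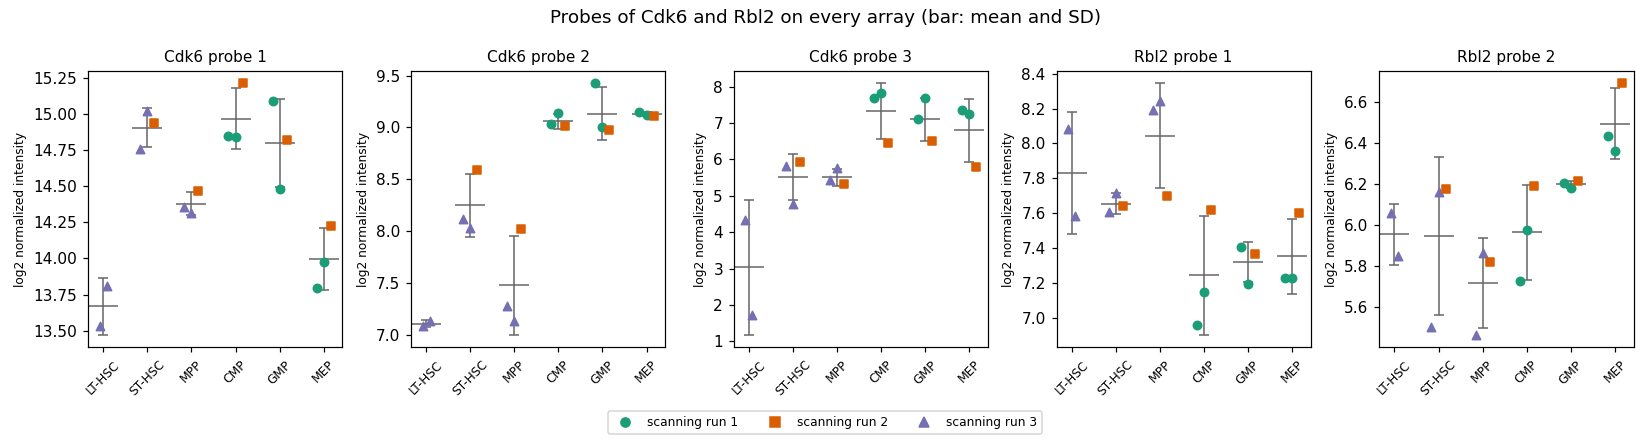
Quantile-normalized log2 intensity (vertical axis) of the 3 Cdk6 and 2 Rbl2 probes on every array of the 6 populations (horizontal axis), with colour and shape giving the scanning run and grey bars the mean and SD. Cdk6 probe 1 is low in MEP while probe 2 is as high there as in CMP and GMP, and the 2 Rbl2 probes order the populations differently.

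Rb1, the retinoblastoma gene, had its highest mean in MEP, which did not pass the test against LT-HSC, the next in order. Probe 1 read 10.74 and 10.64 in LT-HSC, 10.40, 10.31 and 10.30 in ST-HSC, 10.19, 10.10 and 9.93 in MPP, 9.71, 9.74 and 10.34 in CMP, 9.75, 9.61 and 10.16 in GMP, and 10.58, 10.59 and 11.39 in MEP. Every MEP array exceeded every CMP and GMP array. MEP exceeded CMP by 0.92 (1.90-fold, SE 0.24, adjusted p 0.0151) and GMP by 1.02 (2.02-fold, SE 0.24, adjusted p 0.00739). The call against CMP was lost without CMP replicate 1 (adjusted p 0.0681), without CMP replicate 2 (0.0686) and without the unnumbered MEP array (0.0564). The second Rb1 probe was not well above background on any array, so no difference is given for it.

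Rbl1, which encodes p107, passed the test in 0 of the 15 pairs. Its population means ranged from 9.996 ± 0.63 in CMP to 10.45 ± 0.21 in MPP (SD, n = 3 each). The unnumbered CMP array, at 10.72, stood above the other CMP arrays, at 9.54 and 9.72. Without it the myeloid populations were 0.46 below the HSC subsets (adjusted p 0.0173), and MPP exceeded CMP by 0.82 (adjusted p 0.0444). That array was the CMP array of run 2. Rbl1 turned the other way with the scanning run as a block, to -0.38 between HSC subsets and myeloid populations (adjusted p 0.252) and -0.23 between MPP and CMP (adjusted p 0.799), and neither passed.

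Rbl2, which encodes p130, depended on the probe. Probe 1 read 8.08 and 7.59 in LT-HSC, 7.60, 7.72 and 7.64 in ST-HSC, 8.19, 8.24 and 7.70 in MPP, 6.96, 7.15 and 7.62 in CMP, 7.40, 7.19 and 7.37 in GMP, and 7.23, 7.23 and 7.60 in MEP. MPP exceeded CMP by 0.80 (1.74-fold, SE 0.21, adjusted p 0.0256), and by 0.08 on the 2 arrays of run 2. That call was lost with the replicate block (adjusted p 0.0753), the slide as a random block (0.0862) and the run block (0.447). Probe 2, placed on the same transcript, went the other way between HSC subsets and myeloid populations, with a difference of -0.35 (SE 0.12, adjusted p 0.0328) against 0.54 for probe 1 (SE 0.13, adjusted p 0.00361). The probe 1 call was lost with the replicate block (0.34, adjusted p 0.108), the slide as a random block (0.41, adjusted p 0.0602) and the run block. No single direction is given for Rbl2.

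Between HSC subsets (8 arrays) and myeloid populations (9 arrays), each population weighted equally, 3 of the 8 genes were called higher in the HSC subsets and 2 lower by their brightest probe. Over all gene names 21.7% were called higher and 19.0% lower, and the members' count is to be read beside those shares. Ccnd1 was 0.92 higher (1.89-fold, SE 0.14, adjusted p 0.000144), although CMP lay with the HSC subsets. Ccnd2 was 0.32 higher by probe 1 (SE 0.12, adjusted p 0.0491), a call not shared by probes 2 and 3, although CMP had the highest mean (13.47) and GMP (12.80) lay level with ST-HSC (12.81), which left MEP (11.92) as the population below the HSC subsets. That call was lost with scaling to the 75th percentile (adjusted p 0.194), normexp correction (0.0794), the deposited log2 table (0.0960), the mean of all probes (0.352) and without both LT-HSC arrays (0.0736). Ccnd3 was 1.06 lower (2.08-fold, SE 0.17, adjusted p 0.000251) and Cdk4 1.43 lower (2.69-fold, SE 0.20, adjusted p 9.57e-05). Cdk6 probe 1 differed by -0.27 (SE 0.11, adjusted p 0.0637), which passed with scaling to the 75th percentile (-0.45, adjusted p 0.0297) and without GMP replicate 2 (-0.32, adjusted p 0.0289) and turned to 0.05 without both LT-HSC arrays, and probe 2 was 1.495 lower (2.82-fold, SE 0.13, adjusted p 2.71e-06).

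The scanning run moved with this comparison, since run 1 held only myeloid arrays and run 3 only HSC subsets. Run 2 held no LT-HSC array, so its HSC subsets were 1 array of ST-HSC and 1 of MPP. Within run 2 alone, Ccnd1 was 1.03 higher in them, Ccnd2 probe 1 was 0.56 higher, and Cdk6 probe 2 differed by -0.72, with both HSC subset arrays under all 3 myeloid arrays. Ccnd3 differed by -0.31, Cdk4 by -0.43 and Rbl2 probe 1 by 0.14 in that run, and Rb1 probe 1 (-0.51) and Rbl1 (-0.31) had the opposite sign to the fit over all arrays. With the scanning run as a block, Ccnd1 and Ccnd2 were the 2 genes still called, beside 8.16% of gene names higher and 7.26% lower in that fit. Ccnd3 (-0.27, adjusted p 0.479), Cdk4 (-0.49, adjusted p 0.0975) and Rbl2 (0.11, adjusted p 0.791) were not called.

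**Figure D3:**
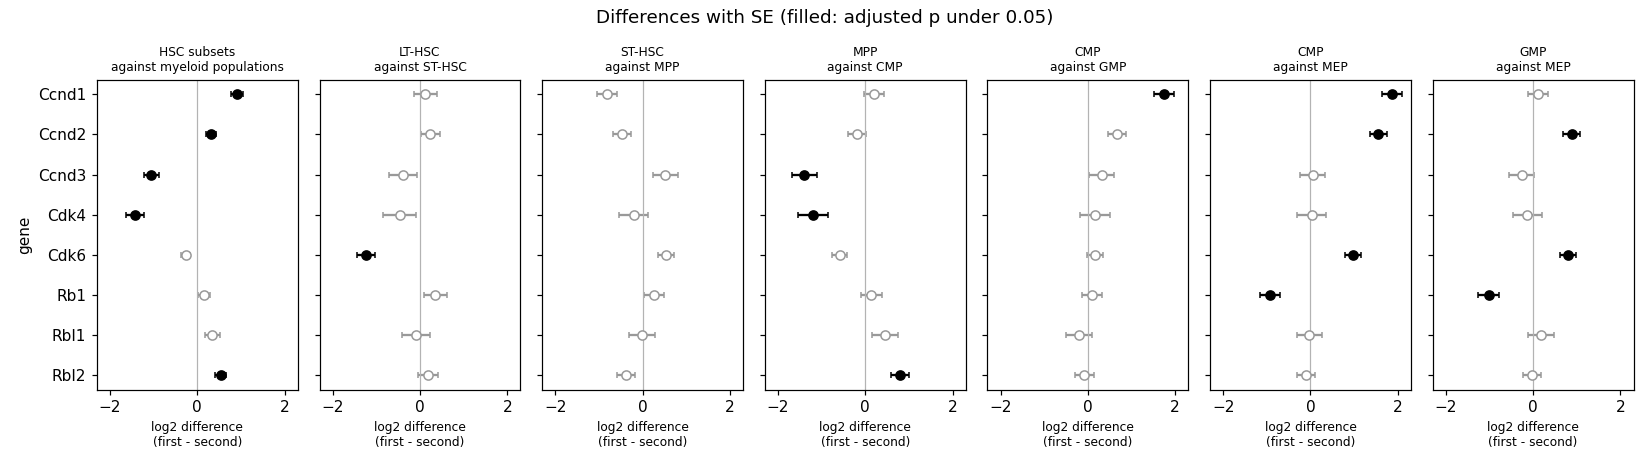
Difference in log2 intensity (horizontal axis, first population minus second) of the brightest probe of each gene (vertical axis) in the 7 comparisons, with bars for the SE and filled points for an adjusted p under 0.05. Ccnd1 is filled in 3 panels, and no gene is filled between ST-HSC and MPP.

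Along the steps of the hierarchy, 0 of the 8 genes were called between ST-HSC and MPP by limma. In that comparison 1.09% of gene names were called higher in ST-HSC and 1.37% lower. Between MPP and CMP, 1 gene (Rbl2, by probe 1) was called higher in MPP and 2 (Ccnd3 and Cdk4) lower, beside 6.51% and 5.75% of gene names. Cdk6 differed there by -0.59 by probe 1 (adjusted p 0.0518) and by -1.58 by probe 2 (adjusted p 0.000776), with no overlap of arrays by either, and within run 2 by -0.75 and -0.99. The probe 1 difference passed with normexp correction (adjusted p 0.0309) and the deposited log2 table (0.0336), and did not with the run block (-0.69, adjusted p 0.125). Between CMP and GMP, 1 gene (Ccnd1) was called higher in CMP and 0 lower, beside 3.43% and 2.06%. Between CMP and MEP, 3 genes (Ccnd1, Ccnd2 and Cdk6 by probe 1) were called higher in CMP and 1 (Rb1) lower, beside 10.4% and 7.45%. Between GMP and MEP, 2 genes (Ccnd2 and Cdk6 by probe 1) were called higher in GMP and 1 (Rb1) lower, beside 10.3% and 8.26%. Ccnd2 exceeded GMP in CMP by 0.67 (SE 0.20, adjusted p 0.0869), and this passed with the replicate number within each sort as a block (adjusted p 0.0154).

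Over the 17 arrays, Ccnd3 and Cdk4 varied together (Pearson r = 0.89), as did Ccnd1 and Ccnd2 (r = 0.81), while Ccnd3 and Rbl2 probe 1 ran opposite (r = -0.89). These are descriptions, since arrays share populations, runs and slides. The genes most like Ccnd1 were Aff3 (r = 0.96), Atp13a2 (r = 0.95) and Atp7a (r = 0.94). Those most like Cdk4 were D4Ertd196e (r = 0.99), Brms1 (r = 0.99) and Eif5a (r = 0.98), out of 12607 genes compared, and those most like Ccnd2 were Tbc1d16 (r = 0.96), Mef2c (r = 0.95) and Capn2 (r = 0.94). The closest to Ccnd3 were Rbm38 (r = 0.96), Cenpt and Fbxw5 (r = 0.95 each), and to Rb1 they were Memo1 (r = 0.98), Cox11 (r = 0.97) and C1qbp (r = 0.95). Rtn4r (r = 0.88), Galk1 (r = 0.87) and H2afx (r = 0.86) were closest to Cdk6 probe 1. Tmem68 (r = 0.94), Rnft1 (r = 0.92) and Zfp280c (r = 0.91) were closest to Rbl1, and Zfp26 (r = 0.94), Pdk1 (r = 0.93) and Chmp5 (r = 0.91) to Rbl2 probe 1. Over the 6 population means these correlations lay between 0.90, for Tmem68, and 0.998, for D4Ertd196e.

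The partners of these genes were described from lists of the pathway. The counts below with the scanning run as a block, or without the dim array, are alternatives chosen after seeing the data. CDK inhibitors, which block cyclin-dependent kinases, were higher in the HSC subsets for 5 of 7 and lower for 0, with a median difference of 1.001 against 0.04 over all gene names, of which 21.7% were called higher. Between MPP and CMP 0 of the 7 were called by limma, beside 6.51% of gene names higher and 5.75% lower. CMP lay with the HSC subsets for Cdkn1a, with a mean of 9.33 against 8.94 to 9.64 in the 3 HSC subsets and 7.24 in GMP and 5.86 in MEP. Cdkn1a, which encodes p21, was 1.88 higher (SE 0.36, adjusted p 0.000862), Cdkn1c, which encodes p57, 1.71 higher (SE 0.17, adjusted p 5.7e-06) and Cdkn2d, which encodes p19, 1.45 higher (SE 0.17, adjusted p 2.26e-05). Cdkn2b passed too, but its probe was well above background on 3 arrays only. With the scanning run as a block, 4 of the 7 were higher and 1 lower, beside 8.16% and 7.26% of gene names in that fit. The genes called there were Cdkn1a, Cdkn1c, Cdkn2b, Cdkn2c and Cdkn2d, and not Cdkn1b, so the count includes the dim Cdkn2b probe.

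The cyclin E and A list, which holds the cyclins Ccne1, Ccne2 and Ccna2, the kinases Cdk2 and Cdk1 and the phosphatase Cdc25a, was lower in the HSC subsets for 6 of 6, with a median difference of -1.03, beside 19.0% of gene names called lower. Without the dim array 5 of the 6 were lower, beside 17.9% of gene names. Ccne1, a cyclin of the step into S phase, was 1.21 lower there (SE 0.13, adjusted p 1.22e-05), and it was 2.70 lower in CMP than in MEP and 2.88 lower in GMP than in MEP. Between LT-HSC and ST-HSC it was 1.60 higher in LT-HSC (SE 0.25, adjusted p 0.00291), where its mean of 12.54 also lay above those of CMP (11.72) and GMP (11.54). Its highest mean was in MEP (14.42), and the MEP markers Car1, Klf1 and Epor were also higher in LT-HSC than in ST-HSC by their means (13.37 and 10.08, 10.24 and 7.90, 12.09 and 10.14). Their part in the Ccne1 difference was not tested. Cdk1, listed under its older name, was 1.11 lower in the HSC subsets (SE 0.12, adjusted p 9.48e-06). Under the run block 3 of the 6 were lower and 0 higher, beside 7.26% and 8.16% of gene names.

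Of the 14 S phase genes that E2F factors are known to regulate, 9 were lower in the HSC subsets and 0 higher by limma, beside 19.0% lower and 21.7% higher over all gene names, with a median difference of -0.33. Cdc6, which loads the replicative helicase, was 1.22 lower (SE 0.10, adjusted p 1.03e-06), Mcm5, a helicase subunit, 1.12 lower (SE 0.14, adjusted p 2.78e-05) and Tk1, a thymidine kinase, 1.06 lower (SE 0.11, adjusted p 8.09e-06). With the scanning run as a block, 5 of the 14 were lower, beside 7.26% of gene names, and without the dim array 7, beside 17.9%. Between CMP and MEP 4 were lower in CMP, where 7.45% of all gene names were lower, and Cdc6 was 1.66 lower (SE 0.16).

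Of the 10 E2F and DP factors, 3 were higher in the HSC subsets and 3 lower, beside 21.7% and 19.0% of all gene names. The largest difference of the list was that of E2f4, 1.46 lower. Its mean was 9.05 in MEP, against 6.09 to 7.22 in the other populations. E2f1, an activator, was 1.33 lower (SE 0.16, adjusted p 2.38e-05) and E2f3, also an activator, was 0.94 higher (SE 0.19, adjusted p 0.00163). With the scanning run as a block E2f1 and E2f3 were not called, and the 1 factor called of the 10 was E2f8, lower, beside the 7.26%. The list labelled DREAM partners held 7 genes: the DREAM subunits Lin9, Lin37, Lin52, Lin54 and Rbbp4, and Mybl2 and Foxm1, which are not subunits of it. Of these 7, 1 was higher and 2 were lower in the HSC subsets, beside the same 21.7% and 19.0%. The 2 lower were Mybl2 (by 1.54, SE 0.14, adjusted p 2.7e-06) and Foxm1 (by 0.63), while the subunit Lin9 was 0.63 higher. With the block only Mybl2 was called.

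**Figure D4:**
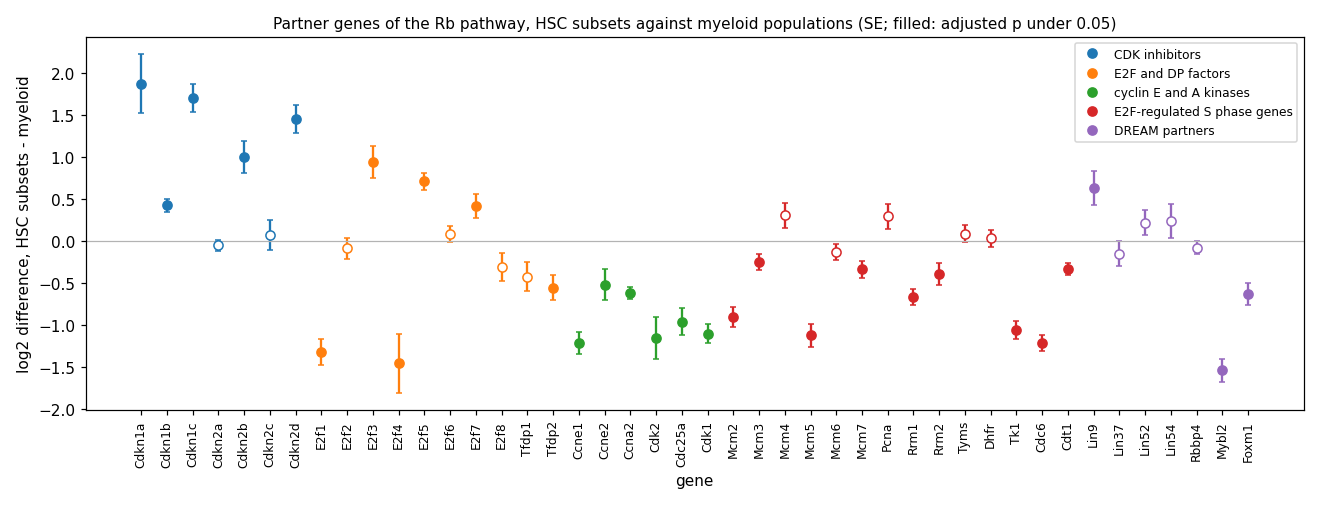
Difference in log2 intensity between HSC subsets and myeloid populations (vertical axis) for the genes of 5 pathway lists (horizontal axis, coloured by list), with bars for the SE and filled points for an adjusted p under 0.05. The 6 genes of the cyclin E and A list are all below 0, and the filled CDK inhibitors are all above it.

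Promoter sequence was at hand for 5 of the 8 genes (Ccnd3 with 2 starts, Cdk4, Cdk6, Rbl1 and Rbl2), from RefSeq on GRCm38, as the 250 bases before the start. Ccnd1, Ccnd2 and Rb1 had no entry. The letters searched on both strands were those of the E-box (CACGTG), of E2F sites (TTTCCCGC or TTTCGCGC, and with them TTTGCCGC or TTTGGCGC) and of the CHR element (TTTGAA). The E-box stood 4 times before Cdk4 and 1 time before Cdk6, against 6.02% of 32851 promoters holding it at all and 20 promoters holding it 3 or more times. An E2F match stood before Rbl1, as in 1.86% of promoters, and a CHR match before Rbl2, as in 15.99%. The Cdk4 promoter (chr10:127063285-127063534, plus strand) and the Rbl1 promoter (chr2:157204535-157204784, minus strand) are shown because they hold the most E-box letters and the one E2F match, in capitals. These are matches of letters, not sites shown to be bound.
Cdk4 promoter: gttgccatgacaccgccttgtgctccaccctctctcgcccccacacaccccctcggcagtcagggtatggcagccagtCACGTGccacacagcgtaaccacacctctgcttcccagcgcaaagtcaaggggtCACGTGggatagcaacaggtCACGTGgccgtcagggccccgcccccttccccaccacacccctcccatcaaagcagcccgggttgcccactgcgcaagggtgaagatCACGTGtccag
Rbl1 promoter: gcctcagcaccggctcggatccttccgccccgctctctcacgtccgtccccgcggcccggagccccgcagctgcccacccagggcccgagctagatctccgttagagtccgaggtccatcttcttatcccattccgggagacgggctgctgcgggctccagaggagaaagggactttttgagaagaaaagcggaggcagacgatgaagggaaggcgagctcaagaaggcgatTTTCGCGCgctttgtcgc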

How the data were processed

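Total RNA of the sorted populations was hybridized to one-colour Agilent whole mouse genome arrays, and the authors deposited the scanner output of Agilent Feature Extraction (9.5.3.1 and 10.2.1.3), whose processed intensity is background-subtracted. They also deposited a table of log2 values, which followed the rank of the median spot intensity on every array and served as an alternative. Intensities were quantile-normalized on the log2 scale over all spots, 1639 control spots and outlier-marked spots were left out, and spots of a probe were averaged (41174 probes). limma 3.58.1 in R 4.3.3 fitted 1 mean per population over the 17 arrays, with Benjamini-Hochberg adjustment over all probes at 0.05. The brightest probe stood for a gene in counts. The members, lists and tests were chosen with earlier results of these data known. All members and all their probes are named, and the genes most like a member are the 3 of highest Pearson r among named genes above background on at least 9 arrays. Same-numbered arrays of one sort deviated together (r from 0.13 to 0.52 over 8 pairs, all on a shared slide), and those of different sorts did not (r from -0.06 to 0.01). B and T cell and mature erythroid markers were also examined. The means of all 4 mature erythroid genes were highest in MEP, all 4 B cell genes in LT-HSC, and 3 of 4 T cell genes in LT-HSC. Among the latter, Pax5 was well above background on 0 of 2 LT-HSC arrays, and Cd79a and Cd3g on 1 of 2, so their order rests on values near background. Scripts were tested on simulated data. Depth is not defined for arrays, and the small number of arrays limits the precision.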

Additional observations from a re-analysis of the deposited data

How the results depend on the processing

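The 2 LT-HSC arrays, 1 of them dim and both on a slide with none of the other arrays, limit the comparisons that use LT-HSC. Runs shared by only 2 HSC subset and 3 myeloid arrays limit those between HSC subsets and myeloid populations or MPP and CMP. ST-HSC against MPP and the comparisons among CMP, GMP and MEP are balanced over runs. With the scanning run as a block, the count of genes called was 2 between HSC subsets and myeloid populations (5 without), 0 between MPP and CMP (3 without), 1 between ST-HSC and MPP (0 without), 2 between CMP and GMP (1 without) and 4 in the F-test (7 without). Calls over all 41174 probes moved too. They went from 17006 to 5970 between HSC subsets and myeloid populations and from 4998 to 1535 between MPP and CMP. Between CMP and GMP they went from 1962 to 3437, between ST-HSC and MPP from 833 to 1505, and in the F-test from 16708 to 15096. With the replicate block, as with the slide as a random block, 4 genes were called between HSC subsets and myeloid populations (Rbl2 lost). The same 2 fits called 1 gene between MPP and CMP, 1 between ST-HSC and MPP and 2 between CMP and GMP. In the same order of comparisons, the replicate block called 16049, 4513, 1254 and 2838 of all probes, and the slide block 11835, 3223, 1299 and 3034. With the replicate block within each sort, an alternative chosen after seeing the data, 2 genes were called between LT-HSC and ST-HSC (1 without). That fit called 11598 of the 41174 probes there, against 1375 without the block. Cdk4 was the gene that joined (-1.12, adjusted p 0.014), but the label shared there is that of the unnumbered arrays, of different runs and slides. Cdk4 was -0.0831 with the run block (adjusted p 0.816) and -0.12 within run 3. The block within each sort called 1 gene between ST-HSC and MPP and 2 between CMP and GMP, beside 2210 and 4681 of all probes. The F-test gave 5 with the replicate block (Ccnd3 and Rbl2 lost) and 6 with the slide block and with the mean of all probes (Rbl2 lost). Normexp correction gave 1 between ST-HSC and MPP and 2 between CMP and GMP, the deposited log2 table gave 2 between CMP and GMP, scaling to the 75th percentile 0 between LT-HSC and ST-HSC, 2 between MPP and CMP (Cdk4 lost, adjusted p 0.0613), 3 between CMP and MEP and 2 between GMP and MEP (Cdk6 lost in both), and the mean of all probes 3 between CMP and MEP (Cdk6 lost, adjusted p 0.181) and 0 between GMP and MEP. That scaling moved the median of all probes from -0.10 to -0.49 between CMP and MEP, from -0.0713 to -0.43 between GMP and MEP and from -0.0167 to 0.31 between HSC subsets and myeloid populations. Leaving out 1 array at a time gave 4 to 5 genes between HSC subsets and myeloid populations, 1 to 4 between MPP and CMP (1 without MPP replicate 2 or 3, or CMP replicate 1 or 2), 1 to 2 between CMP and GMP (2 without MEP replicate 2), 3 to 4 between CMP and MEP and 6 to 7 in the F-test. The Ccnd2 call between HSC subsets and myeloid populations was lost in most single omissions. The cause of these changes was not tested.

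The differences that reversed, out of all 8 genes and 7 comparisons, were not called in the fit over all arrays, and 1 was called once reversed (Rb1 between HSC subsets and myeloid populations with the mean of all probes, adjusted p 0.00237). The Rb1 values with the mean of all probes include its probe 2, which is not well above background on any array, and say nothing about Rb1. Between HSC subsets and myeloid populations, Rb1 became -0.37 with the run block, -0.00112 with the slide block, -0.00738 with the replicate block, -0.60 with the mean of all probes and -0.00236 without both LT-HSC arrays, Rbl1 became -0.38 with the run block, and Cdk6 probe 1 0.0541 without both LT-HSC arrays. Between LT-HSC and ST-HSC, Rb1 became -0.25 with the mean of all probes, Rbl1 0.0707 with the slide block and 0.18 with the replicate block within each sort, and Rbl2 -0.0607 with the replicate block. Between ST-HSC and MPP, Rbl1 became 0.015 with the 75th percentile, 0.075 with normexp, 0.068 with the authors' table and 0.00241 with the slide block. Between MPP and CMP, the run block gave 0.0507 for Ccnd2, -0.37 for Rb1 and -0.23 for Rbl1, and Rb1 became -0.0563 with the slide block and -0.31 with the mean of all probes. Rb1 became -0.0886 between CMP and GMP with the mean of all probes, and the 75th percentile gave -0.35 for Ccnd3 and -0.36 for Cdk4 between CMP and MEP and 1.3e-05 for Rbl2 between GMP and MEP.

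Leaving out 1 array at a time, the differences that changed sign ranged as follows. Between LT-HSC and ST-HSC, Ccnd1 ranged from -0.11 to 0.36, Rbl1 from -0.20 to 0.0342 and Rbl2 from -0.0697 to 0.42. Between ST-HSC and MPP, Cdk4 ranged from -0.55 to 0.21 and Rbl1 from -0.13 to 0.10. Between CMP and GMP, Cdk4 ranged from -0.00241 to 0.26, Rb1 from -0.11 to 0.25, Rbl1 from -0.57 to 0.0224 and Rbl2 from -0.27 to 0.0629. Between CMP and MEP, Ccnd3 ranged from -0.0744 to 0.27, Cdk4 from -0.0384 to 0.10, Rbl1 from -0.39 to 0.23 and Rbl2 from -0.30 to 0.0319. Between GMP and MEP, Ccnd1 ranged from -0.0123 to 0.37, Cdk4 from -0.23 to 0.0313 and Rbl2 from -0.0935 to 0.0923.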
